A study of Mus musculus with 10 samples.

Results

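The genes described are 31 genes of glucose uptake, glycolysis and glycogen handling, measured in the hearts of mice with and without protein kinase C zeta. They were taken from a list by symbol, and each gene was represented by the probe set with the highest mean over the 10 arrays among those annotated to that symbol alone. 27 of the 31 genes could be tested, out of 18193 genes represented in the same way on the array. Gapdh was present only on 3 control probe sets and 3 probe sets shared with other symbols, and no probe set was annotated to Gpi1, Pfkfb1 or Eno1 alone, so these 4 genes were not tested. No measured value was used to choose the genes, but the list was drawn up with earlier results of these data known.

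RNA from male SV129 hearts was hybridised to Affymetrix Mouse Genome arrays, and the values are log2 expression values. The PKCz -/- mice (KO) and their wild-type littermates (WT) were 32 weeks old, and angiotensin II (AngII), a peptide that raises blood pressure, was infused by osmotic minipump at 432 µg/kg/day for 14 days. There were 2 KO AngII, 3 KO PBS, 3 WT AngII and 2 WT PBS arrays, and arrays are named by group and by the number in their titles. The titles call the controls PBS, whereas another label calls them non-treated. The labels do not say that each array came from a separate animal, so the p-values reflect how far arrays of a group differ, and that variation could be technical. Hearts hold several cell types, and fewer cells of a type cannot be told apart from less RNA per cell.

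Heart muscle takes up glucose through the transporters GLUT1 (Slc2a1), present at rest, and GLUT4 (Slc2a4), which insulin and contraction bring to the cell surface. Hexokinase traps glucose in the cell as glucose phosphate, which either enters glycolysis, where phosphofructokinase is the main control point and lactate dehydrogenase links pyruvate and lactate, or is stored as glycogen. Glycogen is built by glycogen synthase and a branching enzyme and broken down by glycogen phosphorylase, which phosphorylase kinase switches on in response to adrenaline and calcium. Adult hearts burn mainly fatty acids, and greater use of glucose is a known feature of the enlarged heart under pressure.

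The targeted gene, Prkcz, read 5.70 to 5.87 on the 5 KO arrays and 6.23 to 6.45 on the 5 WT arrays, with no overlap. Cardiomyocyte markers were present, with 8 of 8 above the median of all probe sets on average. The 24 probe sets for polyadenylated transcripts spiked into the RNA before labelling split the arrays, at 6.90 to 7.08 on KO AngII 3, KO AngII 4 and KO PBS 4 and 12.86 to 13.33 on the other 7. The 3 arrays with low spike-in signal also had the smallest differences between the 3' and 5' probe sets of actin, at 0.74 to 0.83 against 0.92 to 1.70 on the other 7. All KO AngII arrays have low spike-in signal and no WT array does, so values with this split as a block are given beside the main results it moves. Under that block the AngII effect in KO is the mean of both KO AngII arrays minus KO PBS 4 alone. Only the KO PBS group holds arrays of both kinds, so the block is set by KO PBS 4 against KO PBS 2 and KO PBS 3. The KO minus WT values with the block therefore rest on KO PBS 4 as well. The array WT AngII 2 stood apart, with a fibroblast marker list 2.02 above its mean over the arrays, against -0.69 to 0.49 on the other 9. Its macrophage marker list was 0.99 above its mean, against -0.39 to 0.15 on the other 9. The fibroblast list, with 8 of 8 genes above the median of all probe sets, also stood at 0.20 to 0.49 in KO AngII hearts, against -0.61 to -0.41 in KO PBS hearts, and at -0.25 to 2.02 in WT AngII hearts, against -0.69 to -0.25 in WT PBS hearts. Genes of this list did not move together in KO hearts. Col1a1, Col1a2, Col3a1, Postn and Dcn had every AngII value above every PBS value, and Lum overlapped. Pdgfra was lower, at 8.53 and 8.65 under AngII against 8.67, 8.85 and 8.74 under PBS. Tcf21 overlapped, at 7.42 and 7.73 against 7.34, 7.83 and 7.91. The part of the shift of the fibroblast list in the AngII differences below was not tested.

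**Figure D1:**
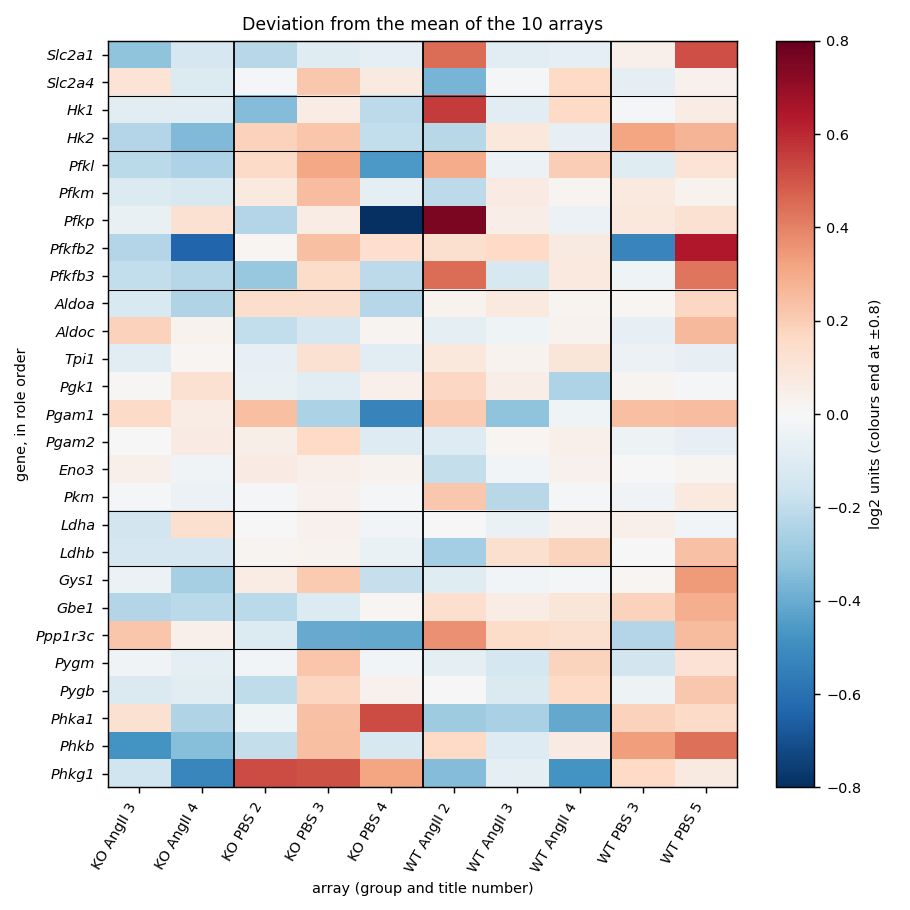
Deviation of each of the 27 genes (rows, in role order) from its own mean over the 10 arrays (columns, by group and title number), in log2 units. Phkg1 is low on all 5 AngII arrays, and WT AngII 2 holds the highest value for 6 genes and the lowest for 4.

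The 27 genes varied little. The range over 10 arrays was under 0.5 for 11 of them and reached 1 or more for 3, and all ranges lay between 0.21 and 1.60. The SD within groups had a median of 0.16. The array WT PBS 5 gave the highest value for 10 of the 27 genes, against 12.4% of all genes, and WT AngII 2 for 6, against 21.6% of all genes. WT PBS 5 also had the largest difference between the 3' and 5' probe sets of actin, at 1.70. Some values below are also given without WT PBS 5 or WT AngII 2.

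AngII was compared with PBS in KO hearts, in WT hearts and as the average of both effects, with limma on all 45037 probe sets other than controls and Benjamini-Hochberg adjustment over all of them. None of the 27 genes passed an adjusted p of 0.05 in KO hearts, in WT hearts or on average, and the share of all genes that passed was 0% in each. The smallest adjusted p among the 27 was 0.892 in KO, 0.930 in WT and 0.483 on average. At an unadjusted p under 0.05, 5 of 27 genes differed in the averaged comparison, against 10.5% of all genes. The same count was 4 in KO, against 4.36% of all genes, and 3 in WT, against 5.42%. On average over genotype the median difference of the 27 genes was -0.07, and 20 of 27 lay below 0. That median was -0.03 with the spike-in split as a block. A single array also moved it: it was -0.02 without WT PBS 5, with 11 of 27 above 0, -0.12 without WT PBS 3 and -0.04 without KO PBS 3. In WT hearts the median was -0.07, and it turned to 0.02 without WT PBS 5.

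The 5 genes with an unadjusted p under 0.05 in the averaged comparison were the phosphorylase kinase subunits Phkg1, Phkb and Phka1, Hk2 and Ppp1r3c. Phosphorylase kinase is built of the subunits alpha (Phka1 encodes the muscle form), beta (Phkb), gamma (Phkg1 encodes the muscle form of the catalytic subunit) and calmodulin. Hk2 encodes the hexokinase typical of insulin-responsive muscle, and Ppp1r3c encodes a subunit, also called PTG, that brings protein phosphatase 1 to glycogen and favours its synthesis. Their promoter windows from RefSeq on GRCm38.p6 are shown because the text turns on these genes. Each runs 5' to 3' on the gene's own strand and covers the 250 bases before an annotated start. The windows of Phka1, Phkb and Phkg1 partly overlap the annotated span of the gene, while those of Hk2 and Ppp1r3c lie outside it. The windows are chrX:102644247-102644496 on the minus strand for Phka1, chr8:85840738-85840987 on the plus strand for Phkb, chr5:129879089-129879338 on the minus strand for Phkg1, chr6:82774455-82774704 on the minus strand for Hk2 and chr19:36736605-36736854 on the minus strand for Ppp1r3c. Capitals mark ACGTG on either strand, the core bound by hypoxia-inducible factors and, within CACGTG, by E-box factors, both of which are known regulators of glycolytic genes.
Phka1: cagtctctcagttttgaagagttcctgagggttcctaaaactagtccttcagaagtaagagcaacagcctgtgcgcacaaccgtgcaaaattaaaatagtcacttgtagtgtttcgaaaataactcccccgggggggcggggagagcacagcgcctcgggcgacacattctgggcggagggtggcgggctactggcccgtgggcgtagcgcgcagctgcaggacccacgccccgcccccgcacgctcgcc
Phkb: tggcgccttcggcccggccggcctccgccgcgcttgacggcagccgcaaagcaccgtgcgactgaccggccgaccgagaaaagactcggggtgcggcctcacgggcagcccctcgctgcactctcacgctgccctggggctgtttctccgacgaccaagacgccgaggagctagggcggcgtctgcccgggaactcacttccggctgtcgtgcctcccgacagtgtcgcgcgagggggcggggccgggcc
Phkg1: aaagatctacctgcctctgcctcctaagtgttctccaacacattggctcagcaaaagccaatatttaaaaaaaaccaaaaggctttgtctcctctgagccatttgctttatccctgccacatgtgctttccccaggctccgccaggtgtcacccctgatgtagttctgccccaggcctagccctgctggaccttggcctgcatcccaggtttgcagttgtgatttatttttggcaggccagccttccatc
Hk2: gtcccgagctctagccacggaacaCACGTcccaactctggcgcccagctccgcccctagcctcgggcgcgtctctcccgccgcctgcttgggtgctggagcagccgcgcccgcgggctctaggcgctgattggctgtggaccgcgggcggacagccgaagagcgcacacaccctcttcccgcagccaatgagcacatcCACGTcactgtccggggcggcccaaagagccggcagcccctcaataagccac
Ppp1r3c: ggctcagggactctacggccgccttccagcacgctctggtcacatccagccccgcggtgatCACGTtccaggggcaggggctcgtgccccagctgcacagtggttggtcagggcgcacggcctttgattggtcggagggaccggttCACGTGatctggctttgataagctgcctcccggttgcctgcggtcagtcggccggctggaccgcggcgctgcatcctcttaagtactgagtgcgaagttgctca

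The windows of Phka1, Phkb and Phkg1 held no ACGTG, that of Hk2 held 2, and that of Ppp1r3c held 3, because a CACGTG holds ACGTG on both strands. Of the 31 genes, 30 had a window in the RefSeq table, all but Slc2a4. ACGTG was found in 13 of these 30 (43.3%), against 18.5% of 27025 genes, and CACGTG in 5 (16.7%), against 6.86%. A gene was counted when any of its windows of 250 bases held the motif, with 47 windows for the 30 genes and 32851 for the 27025. These are matches of letters, and no binding was measured.

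Phkg1 read 6.18 and 5.82 in KO AngII hearts, against 6.87, 6.85 and 6.66 in KO PBS hearts. It read 6.00, 6.27 and 5.86 in WT AngII hearts, against 6.504 and 6.42 in WT PBS hearts. All 5 AngII values lay below all 5 PBS values. The difference was -0.79 ± 0.16 in KO (SE) and -0.42 ± 0.16 in WT, and -0.60 ± 0.12 on average, a 1.52-fold lower level with a 95% interval of -0.86 to -0.35. Its limma p was 0.000243 on average, the smallest of the 27 genes, and its adjusted p was 0.483. Phkg1 read low on these arrays: its AngII means, 6.00 in KO and 6.05 in WT, lay below the array medians of all probe sets (6.12 to 6.23). With the spike-in split as a block the average was -0.54, and leaving out any one array it lay between -0.69 and -0.51. A second, dimmer Phkg1 probe set differed by -0.25 ± 0.10, and it lay below those medians on every array, at 5.27 to 6.02. Its KO groups overlapped, at 5.72 and 5.46 under AngII against 6.02, 5.65 and 5.81 under PBS, and its WT groups did not.

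Phka1 read 9.20 and 8.84 in KO AngII hearts, against 9.04, 9.31 and 9.60 in KO PBS hearts, and these groups overlapped. It read 8.79, 8.82 and 8.67 in WT AngII hearts, against 9.26 and 9.23 in WT PBS hearts, with no overlap. The difference was -0.30 ± 0.18 in KO and -0.49 ± 0.18 in WT, and -0.39 ± 0.13 on average (adjusted p = 0.483, limma). Its 3 probe sets gave average differences of -0.39, -0.41 and -0.40. The KO difference was -0.58 and the average -0.53 with the spike-in split as a block.

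Phkb read 9.29 and 9.42 in KO AngII hearts, against 9.58, 10.003 and 9.64 in KO PBS hearts. It read 9.92, 9.66 and 9.83 in WT AngII hearts, against 10.10 and 10.20 in WT PBS hearts. The AngII values lay below the PBS values within each genotype, while the WT AngII and KO PBS arrays overlapped. The difference was -0.38 ± 0.16 in KO and -0.35 ± 0.16 in WT, and -0.36 ± 0.11 on average (adjusted p = 0.483, limma), or 1.29-fold lower. With the spike-in split as a block the average was -0.31.

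Hk2 read 11.12 and 11.002 in KO AngII hearts, against 11.54, 11.57 and 11.16 in KO PBS hearts. It read 11.13, 11.44 and 11.29 in WT AngII hearts, against 11.67 and 11.63 in WT PBS hearts. The groups did not overlap within either genotype, and KO PBS 4, the PBS array with low spike-in signal, was the lowest PBS value. The difference was -0.36 ± 0.14 in KO and -0.36 ± 0.14 in WT, and -0.36 ± 0.10 on average (adjusted p = 0.483, limma). Against KO PBS 4 alone, as the block has it, the KO difference was -0.10 and the average was -0.23. Hk1, the hexokinase found in most tissues, read 10.83 and 10.83 in KO AngII hearts, against 10.57, 10.97 and 10.71 in KO PBS hearts. It read 11.48, 10.83 and 11.07 in WT AngII hearts, against 10.91 and 10.97 in WT PBS hearts. Its groups overlapped in both genotypes, its highest value was on WT AngII 2, and its average difference was 0.13 ± 0.13 (adjusted p = 0.726, limma). The second Hk1 probe set also had higher means under AngII. It read 10.06 and 9.904 in KO AngII hearts, against 9.29, 9.66 and 9.896 in KO PBS hearts. In WT it read 10.71, 9.46 and 9.864 under AngII, against 9.863 and 9.09 under PBS.

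Ppp1r3c was the only gene of these 5 with a positive average difference. It read 12.01 and 11.83 in KO AngII hearts, against 11.68, 11.39 and 11.38 in KO PBS hearts, with no overlap. It read 12.16, 11.94 and 11.92 in WT AngII hearts, against 11.56 and 12.04 in WT PBS hearts, where WT PBS 5 lay among the AngII values. The difference was 0.44 ± 0.16 in KO and 0.21 ± 0.16 in WT, and 0.32 ± 0.11 on average (adjusted p = 0.487, limma). The average was 0.37 with the spike-in split as a block. The WT difference rests on its 2 PBS arrays, and was -0.04 without WT PBS 3 and 0.45 without WT PBS 5. Its second probe set differed by 1.18 ± 0.30 on average (adjusted p = 0.483, limma). That probe set read 9.97 and 9.93 in KO AngII hearts, against 7.83, 7.86 and 9.30 in KO PBS hearts, so that all 3 arrays with low spike-in signal read 9.30 or more. It read 9.52, 8.42 and 8.80 in WT AngII hearts, against 8.54 and 7.80 in WT PBS hearts, where those groups overlapped.

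**Figure D2:**
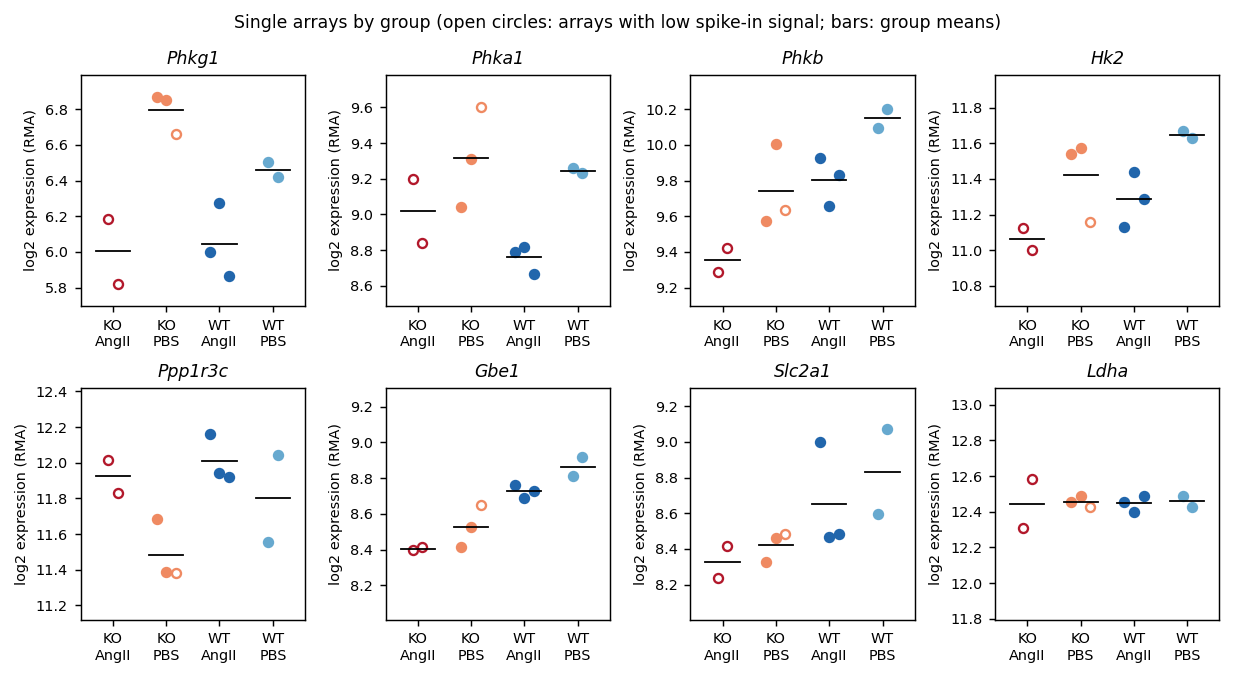
Log2 expression on each array (points) of 8 genes in the groups KO AngII, KO PBS, WT AngII and WT PBS, with bars at the group means; open circles are the 3 arrays with low spike-in signal, and every panel spans the same height. Phkg1 separates AngII from PBS arrays in both genotypes, while Ldha lies near 12.4 to 12.5 on most arrays of every group.

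Groups that did not overlap were counted over all 27 genes. In KO hearts 7 of 27 genes had every AngII value below every PBS value, against 13.5% of all genes, and 2 had every value above, against 12.5%. In WT hearts 7 lay below, against 12.7% of all genes, and 1 above, against 7.87%. The genes below in both genotypes were Hk2, Phkb and Phkg1, 3 of 27 against 4.11% of all genes. Without WT AngII 2, the average difference was -0.59 for Phkg1, -0.39 for Phkb, -0.32 for Hk2, -0.40 for Phka1 and 0.29 for Ppp1r3c. No gene of the 27 lay above in both, against 1.92% of all genes. By role, all 5 genes of glycogen breakdown averaged below 0, with a median of -0.36, and this held for all 5 with the block (median -0.31). Of these 5, the muscle phosphorylase gene Pygm and the brain-type gene Pygb had the smallest differences, at -0.05 ± 0.09 and -0.09 ± 0.09 (-0.01 and -0.11 with the block). The others are Phka1, Phkb and Phkg1, already named for their small p. In WT hearts 4 of the 5 lay below 0, while Pygm differed by 0.001. Pygm read 11.97, 11.911 and 12.23 in WT AngII hearts, against 11.907 and 12.17 in WT PBS hearts. WT PBS 3 lay below all its WT AngII values, so that the direction of Pygm depends on WT PBS 5. Related genes of the wider list below did not all fall. AngII differences in KO and WT were -0.05 and 0.17 for Pygl, -0.23 and 0.09 for Phkg2, and -0.37 and -0.16 for Phka2.

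Among the genes of the phosphofructokinase step, average AngII differences ran between -0.25 and 0.26, and none passed the test. Pfkp, the platelet-type enzyme, differed by 0.26 ± 0.19 on average and by 0.52 with the spike-in split as a block, the most positive of the 27 genes under that block. In KO hearts its difference was 0.38, and 0.88 with the block. Pfkfb2, whose values are given below, differed by -0.56 ± 0.27 in KO hearts and by 0.06 ± 0.27 in WT hearts. Its dimmer probe sets did not fall in KO hearts. Their KO AngII means differed by 0.0004, 0.10 and 0.16 from KO PBS 4 alone. From the mean of KO PBS 2 and KO PBS 3 they differed by 0.16, 0.27 and 1.02. Pfkm, the muscle enzyme, differed by -0.15 on average, and Pfkl, the liver-type one, by -0.05 on average and 0.19 with the block.

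The 8 genes of lower glycolysis, which carry the sugar phosphates to pyruvate, had average AngII differences between -0.12 and 0.05, with a median of 0.01, and between -0.05 and 0.17 with the spike-in split as a block, where Pgam1 was the highest. Tpi1, the triose phosphate isomerase, differed by 0.05, Pgk1, a phosphoglycerate kinase, by 0.04, and Pkm, the pyruvate kinase of muscle, by -0.03. Eno3, the enolase of muscle, differed by -0.06 (95% interval -0.18 to 0.07). Ldha, the lactate dehydrogenase subunit typical of tissues that make lactate, read 12.31 and 12.58 in KO AngII hearts, against 12.46, 12.49 and 12.43 in KO PBS hearts. It read 12.45, 12.40 and 12.49 in WT AngII hearts, against 12.49 and 12.43 in WT PBS hearts. These groups overlapped throughout, and the average difference was -0.01 (95% interval -0.17 to 0.14), which bounds a change of Ldha on this scale without showing that there was none. Ldhb, the subunit typical of heart, differed by -0.12 ± 0.09 (adjusted p = 0.644, limma).

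Glucose transporters gave no called difference between AngII and PBS. Slc2a4 read 12.11 and 11.89 in KO AngII hearts, against 11.99, 12.21 and 12.07 in KO PBS hearts. It read 11.63, 11.98 and 12.16 in WT AngII hearts, against 11.92 and 12.03 in WT PBS hearts. The groups overlapped in both genotypes, WT AngII 2 gave the lowest of the 10 values, and the average difference was -0.07 ± 0.11, or 0.00 without WT AngII 2. The second Slc2a4 probe set had higher means under AngII in both genotypes, and its groups overlapped. That probe set read 10.86 to 11.11 on the arrays with low spike-in signal and 10.01 to 10.71 on the others. Slc2a1 differed by -0.14 ± 0.14 on average, and its values are given with the comparison of genotypes. Gys1, the glycogen synthase of muscle, differed by -0.20 ± 0.11 on average and by -0.09 with the spike-in split as a block. Its second probe set ran the other way, with higher means under AngII in both genotypes and groups that overlapped. That probe set read 8.39 and 8.53 in KO AngII hearts, against 7.89, 7.80 and 8.51 in KO PBS hearts. In WT it read 8.64, 7.32 and 8.07 under AngII, against 8.01 and 7.54 under PBS.

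**Figure D3:**
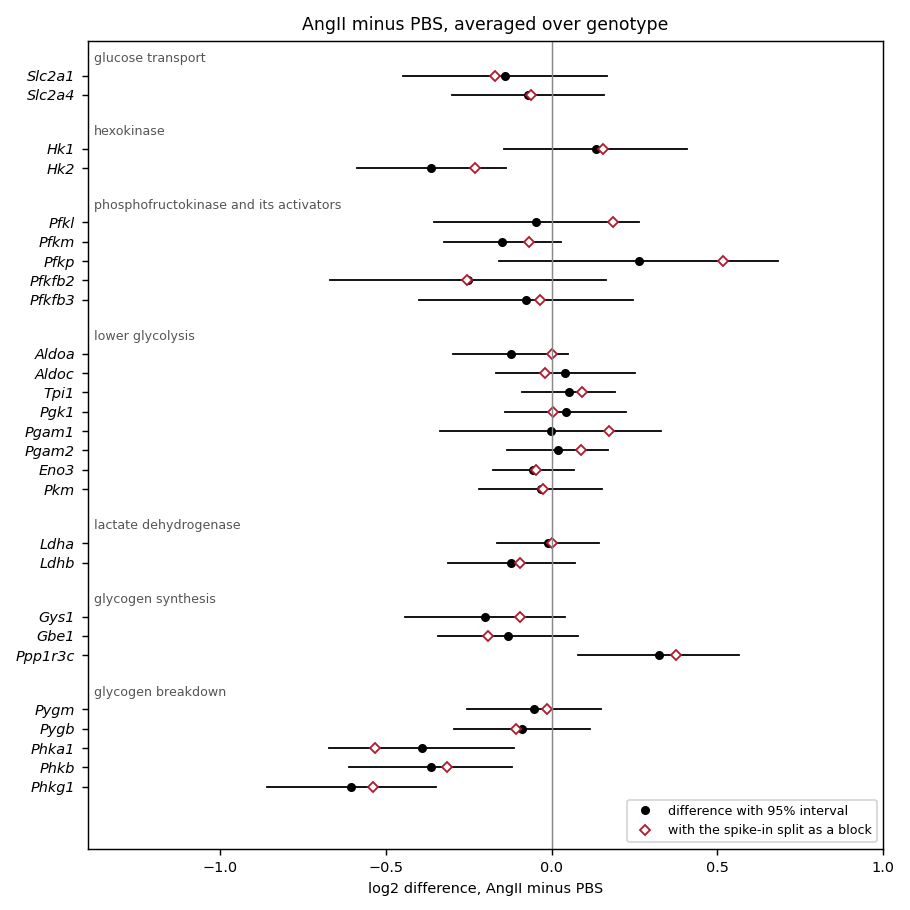
AngII minus PBS in log2 units, averaged over genotype, for the 27 genes by role; black points and lines are limma differences with 95% intervals and red diamonds the differences with the spike-in split as a block. The intervals of Hk2, Phka1, Phkb, Phkg1 and Ppp1r3c leave out 0 before any adjustment, and no gene passed the adjusted threshold.

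Whether AngII acted differently in KO and WT hearts was tested as the KO effect minus the WT effect. None of the 27 genes passed, with an adjusted p of 0.999991 for each (limma), and the share of all genes that passed was 0%. At an unadjusted p under 0.05 the count was 0 of 27, against 1.41% of all genes. The smallest p belonged to Pgam1, the phosphoglycerate mutase of most tissues, at 0.58 ± 0.30. Pgam1 read 9.76 and 9.66 in KO AngII hearts, against 9.84, 9.35 and 9.07 in KO PBS hearts. It read 9.81, 9.28 and 9.57 in WT AngII hearts, against 9.84 and 9.85 in WT PBS hearts. The KO groups overlapped and the WT AngII values lay below the WT PBS values, and KO PBS 4, the PBS array with low spike-in signal, gave the lowest of all 10. With the spike-in split as a block the difference of effects was 0.93 (adjusted p = 0.999964, limma), and it lay between 0.41 and 0.79 when any one array was left out.

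The next in order were Aldoc, Pfkfb2 and Phkg1. Aldoc, the aldolase typical of brain, read 5.88 and 5.73 in KO AngII hearts, against 5.50, 5.56 and 5.72 in KO PBS hearts. It read 5.62, 5.66 and 5.72 in WT AngII hearts, against 5.63 and 5.96 in WT PBS hearts. Aldoc lay below the array medians of all probe sets (6.12 to 6.23) on every array. Its KO groups did not overlap and its WT groups did, and the difference of effects was 0.34 ± 0.19, with 0.21 under the block and 0.17 without WT PBS 5. Pfkfb2, the heart form of the enzyme that makes the fructose bisphosphate that activates phosphofructokinase, read 7.45 and 7.05 in KO AngII hearts, against 7.70, 7.92 and 7.82 in KO PBS hearts. It read 7.81, 7.84 and 7.75 in WT AngII hearts, against 7.16 and 8.32 in WT PBS hearts. Its KO groups did not overlap, while the 2 WT PBS arrays lay below and above all WT AngII arrays, and the difference of effects was -0.63 ± 0.38. It was -0.04 without WT PBS 3 and -1.21 without WT PBS 5. For Phkg1 it was -0.38 ± 0.23 (-0.24 with the block), so that its AngII difference was not shown to depend on genotype.

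KO and WT hearts were compared under PBS, under AngII and as the average of both. None of the 27 genes passed an adjusted p of 0.05 in any of these, where 0.011% of all genes passed under PBS, 0.0055% under AngII and 0.044% on average. The smallest adjusted p among the 27 was 0.745 under PBS, 0.734 under AngII and 0.269 on average. At an unadjusted p under 0.05 the count was 4 of 27 on average, against 12.8% of all genes. It was 2 under PBS, against 5.75%, and 2 under AngII, against 6.63%. The median KO difference of the 27 genes was -0.13 on average, with 20 of 27 below 0. With the spike-in split as a block it was 0.03, with 14 of 27 above 0, so the direction of this median turns with the block. It was -0.04 without WT PBS 5, with 10 of 27 above 0, -0.08 without KO PBS 4 and -0.02 as the mean of all probe sets of each gene.

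Phkb had the smallest p of the genotype comparisons, with the values given above. Its 3 KO PBS values lay below both WT PBS values, and both KO AngII values below all 3 WT AngII values. It differed by -0.41 ± 0.16 under PBS and -0.45 ± 0.16 under AngII, and by -0.43 ± 0.11 on average (adjusted p = 0.269, limma), or 1.35-fold lower in KO. The block gave -0.30 under AngII and -0.33 on average.

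Gbe1, the glycogen branching enzyme, read 8.39 and 8.41 in KO AngII hearts, against 8.76, 8.69 and 8.73 in WT AngII hearts. It read 8.41, 8.52 and 8.65 in KO PBS hearts, against 8.81 and 8.92 in WT PBS hearts. All 5 KO values lay below all 5 WT values. The difference was -0.32 ± 0.14 under AngII and -0.34 ± 0.14 under PBS, and -0.33 ± 0.10 on average (adjusted p = 0.300, limma), with -0.50 under AngII and -0.45 on average when the spike-in split was a block.

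Slc2a1 read 8.23 and 8.42 in KO AngII hearts, against 9.0003, 8.47 and 8.48 in WT AngII hearts. It read 8.33, 8.46 and 8.48 in KO PBS hearts, against 8.59 and 9.07 in WT PBS hearts. The groups did not overlap under either treatment, but the gap was small, and the 2 high values were on WT AngII 2 and WT PBS 5. The difference was -0.32 ± 0.20 under AngII and -0.41 ± 0.20 under PBS, and -0.37 ± 0.14 on average (adjusted p = 0.360, limma), with -0.43 under the block. The difference was -0.15 under AngII without WT AngII 2 and -0.17 under PBS without WT PBS 5. Its 3 probe sets gave average differences of -0.37, -0.38 and -0.23. Slc2a4 differed by 0.10 ± 0.11 on average between KO and WT.

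Pfkfb3, another enzyme that makes the activator of phosphofructokinase, read 6.73 and 6.70 in KO AngII hearts, against 7.37, 6.80 and 7.002 in WT AngII hearts. It read 6.62, 7.07 and 6.71 in KO PBS hearts, against 6.89 and 7.35 in WT PBS hearts. The AngII groups did not overlap, the PBS groups did, and the average was -0.33 ± 0.15 (adjusted p = 0.396, limma), while its second probe set gave 0.24. Aldoa, the aldolase of muscle, read 13.43 and 13.31 in KO AngII hearts, against 13.58, 13.63 and 13.57 in WT AngII hearts. It read 13.69, 13.69 and 13.32 in KO PBS hearts, against 13.56 and 13.72 in WT PBS hearts. The difference under AngII was -0.22 ± 0.11 (adjusted p = 0.734, limma), and with the spike-in split as a block it was 0.15: the 3 lowest Aldoa values were those of the 3 arrays with low spike-in signal. Under AngII, Pfkfb2 differed by -0.55 ± 0.27 between KO and WT on its brightest probe set, and its other probe sets had higher means in KO. The second read 7.46 and 7.60 in KO AngII hearts, against 7.26, 7.38 and 7.14 in WT AngII hearts. That probe set was higher on all 3 arrays with low spike-in signal than on any other array. Under PBS, Phkg1 differed by 0.33 ± 0.16.

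Under PBS 6 of 27 genes had every KO value below every WT value, against 12.1% of all genes, and 2 above, against 12.6%. Under AngII 10 lay below, against 14.5% of all genes, and 2 above, against 13.5%. The genes below under both treatments were Slc2a1, Hk2, Gbe1 and Phkb, 4 of 27 against 3.99% of all genes, and none of the 27 lay above under both, against 3.28%. Without WT AngII 2, the average was -0.40 for Phkb, -0.32 for Gbe1, -0.28 for Slc2a1 and -0.25 for Pfkfb3. Hk2 differed by -0.22 ± 0.10 on average and by 0.04 with the spike-in split as a block. By role, all 5 genes of phosphofructokinase and its activators averaged below 0, with a median of -0.24, and the block put 3 of these above 0 with a median of 0.13. Ldha differed by -0.00 on average (95% interval -0.16 to 0.15).

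**Figure D4:**
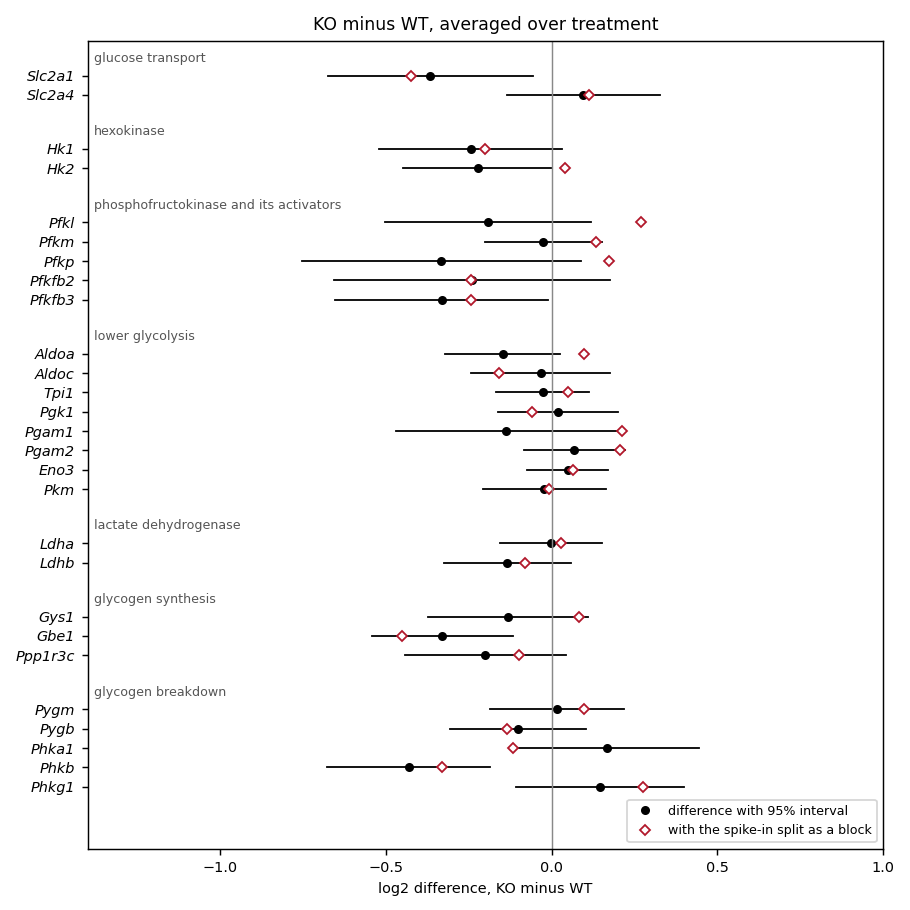
KO minus WT in log2 units, averaged over treatment, for the 27 genes by role; black points and lines are limma differences with 95% intervals and red diamonds the differences with the spike-in split as a block. Slc2a1, Gbe1 and Phkb lie below 0 either way, while Hk2, Pfkl and Aldoa, among others, cross 0 with the block.

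Several steps have isoform pairs, whose balance was taken as the difference of their log2 values on each array. Levels of different probe sets cannot be compared, so only differences of the balance between groups are given, with no test. The Hk1 balance over Hk2 was higher under AngII by 0.44 in KO and 0.55 in WT, against a within-group SD of 0.32. With the spike-in split as a block the KO value was 0.22, and without WT AngII 2, the highest of the 10 arrays, the WT value was 0.30, both under that SD. The Slc2a1 balance over Slc2a4 was lower in KO than in WT by an average of 0.46 on the log2 scale, a difference of -0.46 against a within-group SD of 0.36, or -0.30 without WT AngII 2. The Ldha balance over Ldhb differed by 0.11 between AngII and PBS, less than its within-group SD of 0.19. The enolase pair was not measured.

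Probe sets of a single gene often disagreed. For 16 of the 27 genes there were 2 or more probe sets, 56 over all 27, and all probe sets of a gene ran the same way in 9 of 16 genes for the averaged AngII difference and in 6 of 16 for the averaged KO difference. Within the KO PBS group, KO PBS 4 could be set against the mean of KO PBS 2 and KO PBS 3, which differ from it in spike-in signal and not in genotype or treatment. Second probe sets of Ppp1r3c, Slc2a4 and Gys1 were higher on KO PBS 4 by 1.45, 0.72 and 0.67, whereas the brightest probe sets of these genes differed by -0.15, -0.03 and -0.32. Brightest probe sets were lower on KO PBS 4 for Pfkp (-0.76), the platelet-type phosphofructokinase, Pfkl (-0.69), the liver-type one, and Pgam1 (-0.52). Over the brightest probe sets of the 27 genes, 2 (7.41%) had all 3 arrays with low spike-in signal below the other 7, against 6.21% of all genes.

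**Figure D5:**
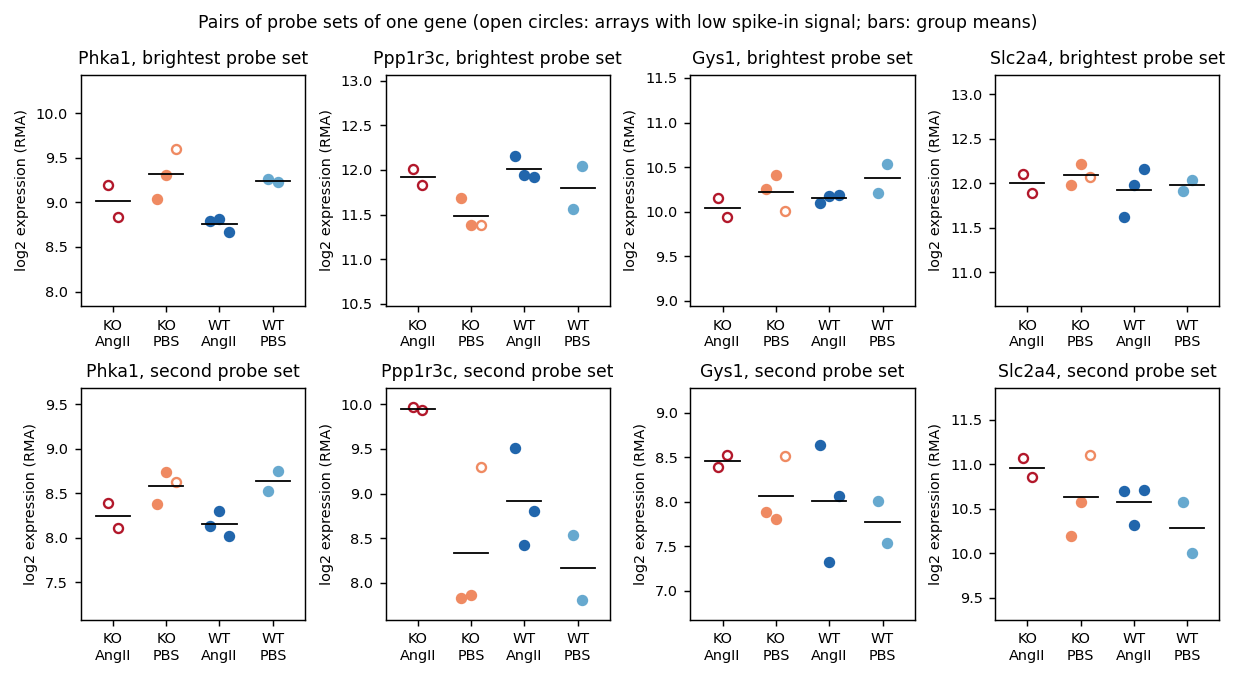
Log2 expression on each array of the brightest (top) and second (bottom) probe set of Phka1, Ppp1r3c, Gys1 and Slc2a4 in the 4 groups, with bars at group means and open circles for the 3 arrays with low spike-in signal; every panel spans the same height. The Phka1 pair follows the same course, while the second Ppp1r3c probe set reads 9.30 to 9.97 on the open circles and 7.80 to 9.52 elsewhere.

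A wider list of genes that regulate glucose use, pyruvate entry into mitochondria and glycogen was set beside the 27. Of its 53 genes 49 were measured, and none passed an adjusted p of 0.05 in any of the 7 comparisons. The median of the 49 was -0.06 for the averaged AngII difference and 0.02 for the averaged KO difference. Pdk4, a kinase that shuts off pyruvate dehydrogenase and so spares glucose, read 11.12 and 11.72 in KO AngII hearts, against 12.00, 12.29 and 11.89 in KO PBS hearts. It read 9.67, 10.78 and 11.22 in WT AngII hearts, against 11.88 and 12.05 in WT PBS hearts. All 5 AngII values lay below all 5 PBS values, the lowest being WT AngII 2, and the average difference was -1.02 ± 0.24 (adjusted p = 0.483, limma).

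Txnip, an inhibitor of glucose uptake, read 10.73 and 11.28 in KO AngII hearts, against 11.29, 12.43 and 12.17 in KO PBS hearts. In WT it read 11.53, 11.77 and 11.58 in AngII hearts, against 11.66 and 11.69 in PBS hearts. The KO AngII values lay just below the lowest KO PBS value, with a KO difference of -0.95 ± 0.27 (adjusted p = 0.892, limma), and the WT groups overlapped. Pygl, the glycogen phosphorylase typical of liver, read 6.49 and 6.46 in KO AngII hearts, against 7.82, 6.93 and 7.15 in WT AngII hearts. It read 6.496, 6.70 and 6.38 in KO PBS hearts, against 6.84 and 7.42 in WT PBS hearts. Its KO values all lay below its WT values, and the average was -0.72 ± 0.18 (adjusted p = 0.251, limma). Ppp1r3b, another subunit that brings protein phosphatase 1 to glycogen, differed by -0.79 ± 0.24 between AngII and PBS in WT hearts (adjusted p = 0.930, limma). In KO hearts it differed by 0.15 ± 0.24, or 0.57 with the spike-in split as a block, and the difference of effects was 0.95 ± 0.34 (adjusted p = 0.999991, limma).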

How the data were processed

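The authors deposited log2 expression values for 10 arrays, made by RMA per the submitters' processing notes, and these were used unchanged. Their lowest and highest values were 3.06 and 14.68 and array medians were 6.12 to 6.23. RNA was 6 µg per array per the labels. Gene symbols came from the platform annotation and were brought up to date through Entrez identifiers (34741 probe sets). Of 45101 probe sets, 64 controls were left out, and no filter on low values was applied. The number of arrays limits the precision.

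A model with one mean for each of the 4 groups was fitted with limma 3.58.1 in R 4.3.3 to all 45037 probe sets. It had 6 residual degrees of freedom. There were 7 comparisons, with p-values adjusted over all probe sets within each and a threshold of 0.05. Errors are SE unless named. The scripts were tested on simulated data. Values are given per array for the genes with the 4 smallest p in any comparison and for Slc2a1, Slc2a4, Hk1, Hk2 and Ldha. Genes of the wider list were named by the smallest p, except Phkg2 and Phka2, which were named beside Phkg1 and Phka1. The genes and lists were chosen with earlier results of these data known. Alternatives were the spike-in split or the title number as a block, array weights, other array scaling, averages over all probe sets of each gene, only the brighter probe sets, other variance models, only the arrays compared, single arrays left out and, chosen after seeing the data, only the arrays with high spike-in signal.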

Additional observations from a re-analysis of the deposited data

How the results depend on the processing

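The count of genes called among the 27 stayed at 0 in 143 combinations of comparison and alternative and differed in 3, all with array weights. With them, 3 genes were called for KO minus WT under AngII (Phkb -0.47, adjusted p = 0.0207, Gbe1 -0.32, adjusted p = 0.0493, and Ldhb -0.30, adjusted p = 0.0285), where 6.46% of all probe sets were called. Array weights called 1 gene for AngII averaged over genotype (Phkg1 -0.68, adjusted p = 0.0403), where 0.2% of probe sets were called. They called 2 for KO averaged over treatment (Phkb -0.47, adjusted p = 0.0198, and Gbe1 -0.34, adjusted p = 0.0376), where 3.47% of probe sets were called. Leaving out each array in turn, the count was 0 to 0 in every comparison.

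Among the genes with the 4 smallest p in a comparison, direction turned for 3 values. Aldoa for KO minus WT under AngII was 0.15 with the spike-in split as a block and 0.14 when WT AngII 2 was also left out, an alternative chosen after seeing the data. Pfkfb2 for the same comparison was 0.082 as the mean of all its probe sets. The cause was not tested. With the block, the average KO difference lay above 0 for 14 of 27 genes, against 7 of 27 in the main fit, so several genes turned. Hk2 (0.04), Pfkl and Aldoa were among them. The balances of Pfkl over Pfkm (0.14) and Aldoc over Aldoa (-0.26) also turned in the average KO difference, and that of Pygb over Pygm was -0.23. Some other values that turned when an array was left out stand beside their results, and not all such turns are given.

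Title numbers recur across groups but were not taken as pairing the samples: the deviations of 10 same-numbered pairs correlated between -0.36 and 0.10, with 1 over 0.1. With the number as a replicate block, 0 of the 27 genes were called in every comparison, the median KO average of the 27 was -0.04, and Phkg1 under AngII averaged -0.55 and Phkb in KO -0.40.

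Each group held 2 or 3 arrays, and the spike-in split lay across the groups. Differences of the size seen here cannot be told apart from that split where the block moves them. A difference involving KO arrays that the block leaves in place is not cleared of the split either. The block is set within the KO PBS group alone, and all KO AngII arrays but no WT array have low spike-in signal.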
